A study of Mus musculus with 34 samples.

Results

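The levels of 40 genes of the cell division cycle and of DNA replication were measured by RNA-seq in the brains of aged mice that lacked HDAC1, carried the 5XFAD transgenes, or both. The genes were taken by symbol from the 23951 genes of the deposited FPKM files, and all 40 were found. They comprised 9 cyclins, 4 cyclin-dependent kinases (CDKs), 7 CDK inhibitors, 3 CDC25 phosphatases, 4 E2F factors, 3 pocket proteins, 6 MCM helicase subunits, 3 genes of S and G2/M phase, and Sertad1. Hippocampal RNA came from 4 control (Hdac1f/f), 5 Hdac1 cKO (Hdac1f/f, Nestin-Cre), 6 5XFAD (Hdac1f/f, 5XFAD) and 5 compound mice (Hdac1f/f, Nestin-Cre, 5XFAD), aged 13 to 14 months, with 1 library per mouse. RNA of GFAP+ nuclei, sorted from cortex, came from 3 control and 4 Hdac1 cKO mice of those same genotypes, aged 13 months. All groups carried the floxed Hdac1 allele, and the study's aged mice were male. Nestin-Cre acts in the precursors of neurons and macroglia, so microglia and other cells outside that lineage keep Hdac1, and the 5XFAD transgenes are driven by the Thy1 promoter. FPKM counts the fragments of a gene, scaled to the length of its transcript and the size of its library.

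In dividing cells, D-type cyclins with CDK4 or CDK6 and then E-type cyclins with CDK2 phosphorylate the pocket proteins (RB1 and its relatives), which releases E2F factors and starts the transcription of genes for DNA replication, such as those of the MCM helicase. Cyclins A and B with CDK1 or CDK2 carry the cell through S phase and mitosis, CDC25 phosphatases remove the phosphates that hold CDKs inactive, and the CDK inhibitors of the CIP/KIP (Cdkn1a, Cdkn1b, Cdkn1c) and INK4 (Cdkn2a to Cdkn2d) families restrain them. HDAC1 is a histone deacetylase that pocket proteins recruit to E2F-bound promoters. Neurons of the adult hippocampus do not divide, while precursors of the dentate gyrus, glia and vascular cells can.

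The labels were first checked against Hdac1 itself. In hippocampus it stood at 5.91 to 10.7 FPKM in the controls and at 2.36 to 3.03 FPKM in Hdac1 cKO mice, and at 6.10 to 9.64 FPKM in 5XFAD mice and 1.15 to 2.52 FPKM in compound mice, with no overlap between mice with and without Cre. In the GFAP+ nuclei it stood at 9.91, 14.5 and 22.3 FPKM in the controls and at 5.80, 8.73, 9.71 and 11.5 FPKM in the libraries labelled Hdac1 cKO, so these groups overlapped (permutation p = 0.114, two-sided exact test). Thy1, whose promoter drives the transgenes, was at 303 to 388 FPKM in hippocampus without 5XFAD and at 1563 to 2357 FPKM with it. The nuclei showed astrocyte markers at a mean log2(FPKM + 1) of 7.62 to 7.99 and neuron markers at 4.15 to 4.53, against 5.64 to 6.25 and 6.95 to 7.25 in hippocampus. Markers of the choroid plexus epithelium, led by Ttr, varied among the hippocampal libraries, from 53.8 to 20146 FPKM for Ttr. They varied within each group, and Ttr was at 56.5 to 1608 FPKM in Hdac1 cKO mice. In tissue RNA, fewer cells of a type and less RNA per cell cannot be told apart.

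For 4 members that the text returns to, the 250 bases before a start site listed in RefSeq (build GRCm38.p6) were taken. They are read on the gene's strand from 5′ to 3′. Capitals mark matches to 4 spellings of the E2F site (TTTCCCGC, TTTGGCGC, TTTCGCGC or TTTGCCGC, on either strand, overlaps allowed). Mcm6 and Mcm5, subunits of the replicative helicase, are shown because their windows hold 3 and 2 matches, and E2f1 and Ccne1 because their levels were among those that differed between groups. The E2f1 window lies inside the gene, before an internal start site, so the region before the gene's 5′ end is not shown for E2f1.
Mcm6, chr1:128359706-128359955, minus strand: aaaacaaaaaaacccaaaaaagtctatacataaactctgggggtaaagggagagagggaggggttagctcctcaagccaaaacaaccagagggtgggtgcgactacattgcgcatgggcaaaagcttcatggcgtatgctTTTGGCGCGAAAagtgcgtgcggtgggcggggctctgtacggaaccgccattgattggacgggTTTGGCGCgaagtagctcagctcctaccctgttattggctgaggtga
Mcm5, chr8:75109259-75109508, plus strand: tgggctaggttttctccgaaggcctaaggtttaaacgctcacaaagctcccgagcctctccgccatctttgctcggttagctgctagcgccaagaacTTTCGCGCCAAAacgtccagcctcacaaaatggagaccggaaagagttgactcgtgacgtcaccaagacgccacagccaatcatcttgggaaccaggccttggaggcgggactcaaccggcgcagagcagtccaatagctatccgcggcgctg
E2f1, chr2:154569427-154569676, minus strand: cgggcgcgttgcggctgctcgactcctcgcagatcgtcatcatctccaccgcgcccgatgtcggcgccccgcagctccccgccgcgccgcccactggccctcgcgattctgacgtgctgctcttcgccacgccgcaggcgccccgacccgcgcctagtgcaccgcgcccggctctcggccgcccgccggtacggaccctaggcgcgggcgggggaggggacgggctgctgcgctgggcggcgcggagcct
Ccne1, chr7:38107491-38107740, minus strand: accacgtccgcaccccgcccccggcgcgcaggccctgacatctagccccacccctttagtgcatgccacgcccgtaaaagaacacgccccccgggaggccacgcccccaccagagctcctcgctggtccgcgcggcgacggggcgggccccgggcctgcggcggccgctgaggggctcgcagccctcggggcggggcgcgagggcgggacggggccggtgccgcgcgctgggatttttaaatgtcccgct

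RefSeq gave 38 such windows for 31 of the 40 members. One of the 4 E2F spellings was present in 9 of these 38 windows (those of Cdc25a, Cdk1, Cdk2, Cdkn2a, E2f3, Mcm5, Mcm6, Mcm7 and Rbl1) and in 1.86% of the windows of all 32851 start sites. CCAAT was found in 22 of 38 windows against 33.8% of all, GGGCGG, the core of the GC box, in 29 of 38 against 32.7%, and TTTGAA, the core of the cell cycle homology region of G2/M genes, in 9 of 38 against 15.99%, each on either strand. Of the 8 members that any comparison below called, 6 had 9 windows in RefSeq, and none of these 9 held an E2F spelling. Some of these 9 precede start sites inside the gene, among them the E2f1 window and the E2f2 window at chr4:136180532-136180781. The count therefore does not describe the main promoters of all 6 members. A missing match says only that these letters are not in this window.

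**Figure D1:**
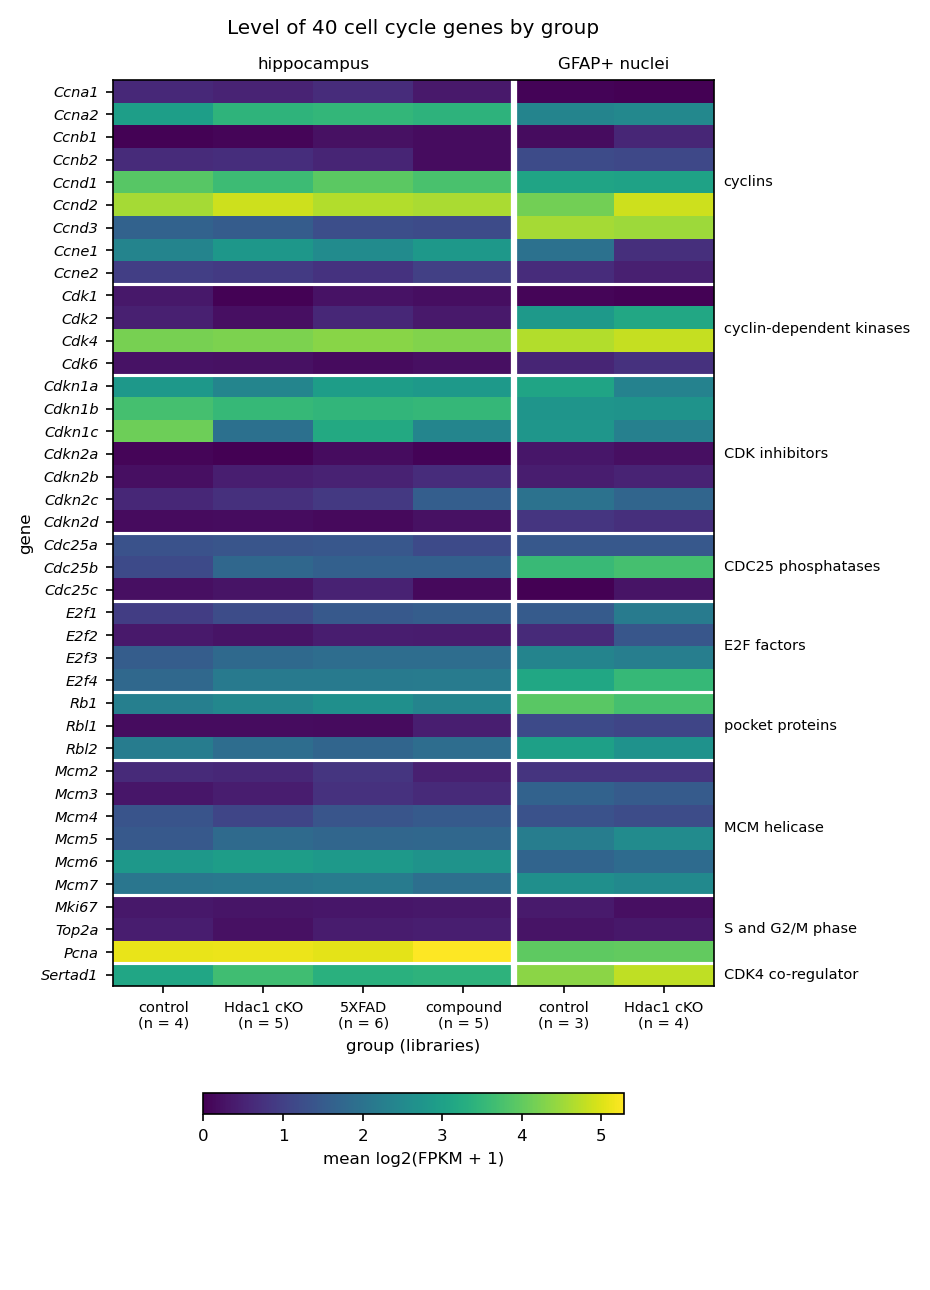
Mean log2(FPKM + 1) of the 40 genes (rows, ordered by role) in the 4 hippocampal groups and the 2 groups of GFAP+ nuclei (columns, with the number of libraries), on a colour scale that starts at 0. Pcna, Ccnd2 and Cdk4 were the highest in hippocampus, Cdk4, Sertad1, Ccnd2 and Ccnd3 in the nuclei, and Mki67, Top2a, Ccnb1, Cdk1 and Cdkn2a were near 0 throughout.

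Levels ranged from abundant to barely detected. Averaged over the 20 hippocampal libraries, 6 of the 40 genes reached 10 FPKM: Pcna, the sliding clamp of DNA polymerase that also acts in repair, at 34.6 FPKM, Ccnd2 at 24.9, Cdk4 at 18.4, Ccnd1 at 13.3, Cdkn1b at 10.8 and Sertad1 at 10.1. The median level of Pcna exceeded that of 90.3% of all listed genes. Of the rest, 17 averaged between 1 and 10 FPKM and 17 under 1 FPKM, and 14 were listed at 0 in at least 1 library. Cdkn2a, which encodes p16 and p19ARF, had the lowest mean (0.0607 FPKM) and was at 0 in 15 of 20 libraries. Ccnb1, the mitotic cyclin, was at 0 in 10 of 20 libraries and Cdk1, its kinase, in 7, and Mki67, the proliferation antigen Ki-67, averaged 0.259 FPKM and Top2a, the topoisomerase of S to M phase, 0.319 FPKM. In fragments these levels were very small. From the step size of the FPKM values, the 20 libraries together held about 24 fragments of Ccnb1, 40 of Cdk1, 254 of Mki67 and 168 of Top2a, and Cdkn2a had 5. Whether differences of a few fragments between groups can be detected at this depth was not tested.

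The GFAP+ nuclei had a different order, which is given as a description because region, compartment and library method all differ from the hippocampal set and because FPKM divides by transcript length although the hippocampal fragments come only from the 3′ end. Cdk4 was at 26.8 FPKM, Sertad1 at 24.1, Ccnd2 at 23.8, Ccnd3 at 23.1, Pcna at 15.6, Rb1 at 13.4 and Cdc25b at 11.9. Ccnd3 averaged 1.71 FPKM in hippocampus, Cdk2 7.45 FPKM in the nuclei and 0.348 FPKM in hippocampus, and Rb1 4.52 FPKM in hippocampus. Mki67 (0.231 FPKM), Top2a (0.255 FPKM), Cdk1 (0.0315 FPKM) and Ccna1 (0.0147 FPKM) were also near 0 in the nuclei.

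Few members differed in the 7 comparisons. A gene was called when it differed by at least 1.5-fold on the log2(FPKM + 1) scale with an unadjusted p under 0.05 in limma, the thresholds of the study, and the Benjamini-Hochberg adjusted p over all genes tested stands beside each call. For Hdac1 cKO against control, 2 of 27 members tested were called, where 3.36% of all 14265 genes were. For 5XFAD against control it was 0 of 28 members with a background of 2.95%. At an unadjusted p under 0.05 alone, that comparison had 4 of 28 members and 10.7% of all genes in limma. Compound against control gave 3 of 24 with a background of 4.24%. Compound against 5XFAD gave 1 of 27 (background 1.28%), compound against Hdac1 cKO 1 of 25 (background 3.55%), and the GFAP+ nuclei 5 of 31 (background 2.58%). The interaction of Hdac1 loss and 5XFAD, fitted over all 20 hippocampal mice, gave 0 of 26 with a background of 4.07%. At an unadjusted p under 0.05 alone, the interaction had 3 of 26 members and 8.97% of all genes in limma. At an adjusted p under 0.05 no member was called in any comparison, where the share of all genes was 0.154% for Hdac1 cKO, 0.708% for 5XFAD, 0.662% for compound against control, 0.00698% for compound against 5XFAD, 1.49% for compound against Hdac1 cKO, 0.0133% in the nuclei and 0% for the interaction. The members' median log2 change was 0.04 for Hdac1 cKO, 0.12 for 5XFAD and 0.09 for compound mice against control and -0.03 in the nuclei, beside medians of -0.01 or nearer to 0 over all genes tested in these 4 comparisons.

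**Figure D2:**
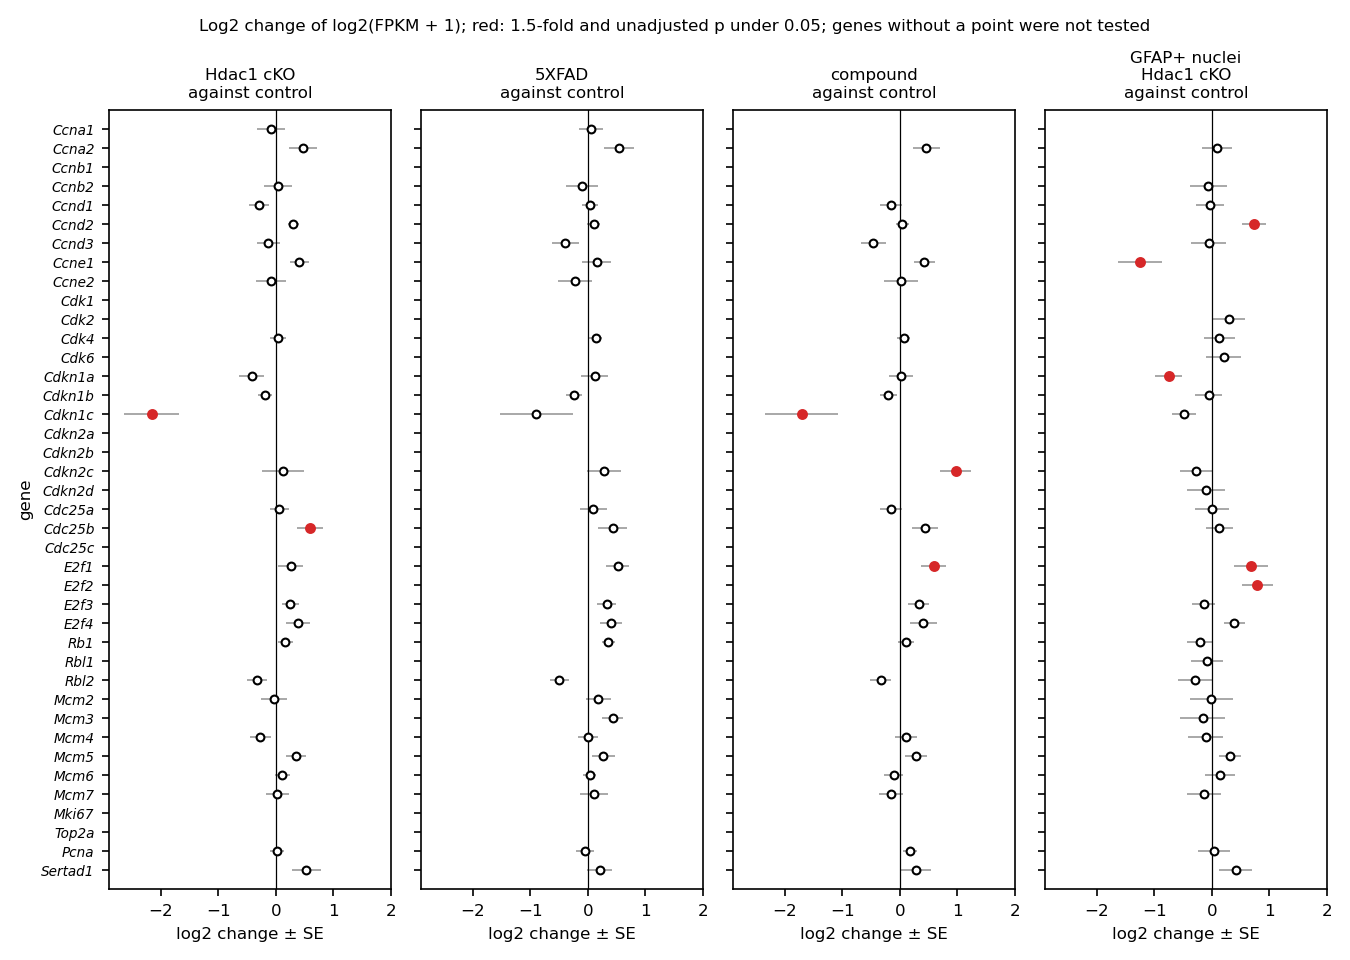
Log2 change of log2(FPKM + 1) with its limma standard error for each member tested (rows) in Hdac1 cKO, 5XFAD and compound mice against control in hippocampus and in Hdac1 cKO against control in GFAP+ nuclei (panels). Red points passed 1.5-fold and an unadjusted p under 0.05, members without a point were below the filter of 0.5 FPKM, and the largest change was that of Cdkn1c at -2.16 in Hdac1 cKO mice.

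Among the cyclins, Ccnd2, the D-type cyclin of neural precursors (mm9, chromosome 6, 127075797 to 127101066, minus strand), had the clearest separation. In hippocampus it stood at 20.6, 23.0, 23.3 and 23.9 FPKM in the controls and at 25.6, 26.3, 26.9, 30.4 and 32.5 FPKM in Hdac1 cKO mice, so the groups did not overlap. The difference was 0.30 on the log2 scale (SE 0.10), below the 1.5-fold threshold, with an adjusted p of 0.246 in limma and an exact permutation p of 0.00794, the smallest that 4 against 5 mice allow. Compound mice were at 19.2, 23.4, 23.6, 24.6 and 27.1 FPKM and 5XFAD mice between 19.8 and 28.02 with a median of 25.9. Both of these groups overlapped the controls, and the interaction was -0.36 (SE 0.15, unadjusted p = 0.0282, adjusted p = 0.505 in limma). The nuclei had Ccnd2 at 13.2, 15.9 and 22.2 FPKM in the controls and at 22.4, 27.8, 31.2 and 34.2 FPKM in the libraries labelled Hdac1 cKO. The highest control was just below the lowest of the others. Ccnd2 was called higher by 0.74 (SE 0.21, adjusted p = 0.984 in limma), and the call was lost without control replicate 3 (0.58).

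Ccne1, the cyclin that partners CDK2 at the start of S phase (mm9, chromosome 7, 38883003 to 38892553, minus strand), differed between the tissues. In hippocampus the controls were at 3.31, 4.17, 4.72 and 4.79 FPKM, Hdac1 cKO mice at 4.03, 5.73, 5.76, 6.87 and 7.91, and compound mice at 4.22, 5.34, 6.25, 6.78 and 8.12. In both mutant groups 1 mouse lay within the control range and 4 above it, and the log2 differences were 0.41 (SE 0.17, adjusted p = 0.368) and 0.43 (SE 0.18, adjusted p = 0.419 in limma), neither of them called. 5XFAD mice spanned 2.36 to 9.58 FPKM around a median of 5.00. The order in the nuclei was the other way, with controls at 1.35, 2.92 and 5.51 FPKM and the libraries labelled Hdac1 cKO at 0.276, 0.440, 0.506 and 1.62 FPKM. The groups overlapped by 1 library, and Ccne1 was called lower by -1.25 (SE 0.38, adjusted p = 0.984 in limma). The Hdac1 difference in the nuclei minus that in hippocampus, fitted after the values had been seen, was -1.66 (SE 0.40, unadjusted p = 0.000571, adjusted p = 0.248 over 13488 genes in limma), and 1036 of those genes had an unadjusted p under 0.05.

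No other cyclin that passed the filter was called. Ccna1, an A-type cyclin best known from male germ cells, was at 0.213, 0.411, 0.460 and 1.13 FPKM in control and at 0, 0.241, 0.299, 0.880 and 0.981 FPKM in Hdac1 cKO hippocampus, with a log2 difference of -0.09 (SE 0.25, adjusted p = 0.936 in limma), which became -0.84 and was called with the choroid plexus covariate and turned positive in 2 of 11 alternatives. It was at 0 in 2 compound mice and in 6 of the 7 libraries of nuclei. Ccna2, the cyclin of S phase and mitosis, averaged 7.30 ± 3.69 FPKM (SD, n = 4) in control and 9.85 ± 1.66 (n = 5), 10.6 ± 2.71 (n = 6) and 9.67 ± 1.00 (n = 5) in Hdac1 cKO, 5XFAD and compound mice. Its differences from control of 0.47, 0.55 and 0.46 share the same 4 controls, of which 1 reached 12.5 FPKM, and did not pass the test (adjusted p = 0.486, 0.482 and 0.529 in limma). Ccnd1 and Ccnd3, the other D-type cyclins, averaged 11.5 to 14.6 and 1.33 to 2.27 FPKM in the 4 hippocampal groups and were not called in any comparison.

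Of the kinases, Cdk4 was alone in passing the filter in hippocampus. The controls were at 14.5, 18.4, 18.5 and 18.5 FPKM, Hdac1 cKO mice at 14.3, 15.7, 19.5, 19.7 and 21.2, compound mice at 16.4, 16.9, 18.6, 19.7 and 20.1, and 5XFAD mice between 16.8 and 23.6 with a median of 18.7. All groups overlapped, and the log2 differences from control lay between 0.04 and 0.14 with standard errors of 0.11 to 0.13. In nuclei it was at 17.7, 26.6 and 31.5 FPKM in the controls and at 16.4, 29.6, 31.5 and 34.3 FPKM in the libraries labelled Hdac1 cKO. Cdk1 was too low for the model: it was detected in each of the 4 hippocampal controls, at 0.115 to 0.437 FPKM or 1 to 4 fragments, and in 1 of 5 Hdac1 cKO mice, with 2 fragments. Relative depth overlapped between these groups, with a median of 1.79 in Hdac1 cKO and 1.26 in control. The exact permutation p was 0.0238 for this single gene, unadjusted, and in compound mice Cdk1 was detected in 3 of 5.

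Sertad1 binds CDK4 and co-activates E2F, and is known from neurons that re-enter the cell cycle before they die (mm9, chromosome 7, 28271929 to 28275335, plus strand). It stood at 5.61, 6.48, 9.66 and 10.2 FPKM in control hippocampus and at 7.34, 9.89, 10.6, 16.2 and 17.4 FPKM in Hdac1 cKO mice. The groups overlapped, and the log2 difference of 0.54 (SE 0.24, unadjusted p = 0.0502, adjusted p = 0.427 in limma) missed the call, which was reached in 5 of 16 alternative fits. Compound mice were at 5.79, 7.83, 9.59, 11.8 and 16.1 FPKM and 5XFAD mice at 5.54 to 12.6 with a median of 9.78, neither apart from the controls. Its values in nuclei were 10.5, 24.1 and 28.6 FPKM in the controls and 22.9, 26.5, 27.1 and 28.8 in the libraries labelled Hdac1 cKO, a log2 difference of 0.41 (SE 0.28, adjusted p = 0.984 in limma). Over 13 alternative fits this difference ran from -0.0011 to 0.98, with a call in 2 and another sign in 1.

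The CDK inhibitors held the largest difference of all members, that of Cdkn1c, which encodes p57 (mm9, chromosome 7, 150644255 to 150646955, minus strand). Control hippocampus had 5.23, 18.7, 20.8 and 32.1 FPKM, Hdac1 cKO 1.31, 2.32, 3.14, 3.72 and 4.68 FPKM, compound mice 2.01, 2.39, 3.44, 4.36 and 15.9 FPKM, and 5XFAD mice 2.04 to 15.7 FPKM with a median of 11.4. Hdac1 cKO mice were all below the controls, while compound mice overlapped them by 1 library. Cdkn1c was called lower in Hdac1 cKO mice (log2 difference -2.16, SE 0.48, adjusted p = 0.155) and in compound mice (-1.71, SE 0.64, adjusted p = 0.397 in limma). Without control replicate 1 the adjusted p of the first became 0.000481, the only value under 0.05 that a member reached in 123 alternative fits. In that fit 290 of all 14262 genes had an adjusted p under 0.05 in limma, in place of 22 of 14265. In the second the call was lost without any 1 of control replicates 2, 3 and 4 or compound replicates 2 to 5, with differences from -1.39 to -1.71.

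Cdkn1c moved with the choroid plexus markers from library to library. The 8 hippocampal libraries with Ttr above 2000 FPKM (3 control, 4 5XFAD and 1 compound) had Cdkn1c at 10.1 to 32.1 FPKM, and the 12 libraries with less Ttr (1 control, 5 Hdac1 cKO, 2 5XFAD and 4 compound) at 1.31 to 5.23 FPKM. Control replicate 1 had 576 FPKM of Ttr and 5.23 FPKM of Cdkn1c, where the other 3 controls had 12903 to 20146 FPKM of Ttr, and compound replicate 1 had 13910 FPKM of Ttr and 15.9 FPKM of Cdkn1c, where the other 4 had at most 265 and 4.36. All 12 choroid plexus markers were called lower in Hdac1 cKO mice, 0 in 5XFAD and 8 in compound mice. Of the 8 ependyma markers, 8, 6 and 3 were called lower in these groups. The part of ependyma in the Cdkn1c difference was not tested. The choroid plexus markers' summed level was 671 to 21529 FPKM in control, 105 to 1724 in Hdac1 cKO, 102 to 8379 in 5XFAD and 103 to 14532 in compound mice. With the mean log2 level of these markers as a covariate, the Cdkn1c difference was -0.35 (adjusted p = 0.836) in Hdac1 cKO and -0.16 (adjusted p = 0.941 in limma) in compound mice. No other member separated the libraries with high and low Ttr without overlap. The Ttr level of 2000 FPKM was set to describe the libraries, and the share of all genes that it separates is not given. In the GFAP+ nuclei Ttr was at 6.404, 10.7 and 131 FPKM in control and at 95.9 to 246 FPKM in the libraries labelled Hdac1 cKO, where 2 of 10 choroid plexus markers and 1 of 7 ependyma markers tested were called higher. Cdkn1c there was at 4.87, 5.85 and 7.07 FPKM in control and at 3.21, 3.62, 4.21 and 4.84 FPKM in the libraries labelled Hdac1 cKO, with no overlap and a difference of -0.48 (SE 0.21, adjusted p = 0.984 in limma), which was not called.

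**Figure D3:**
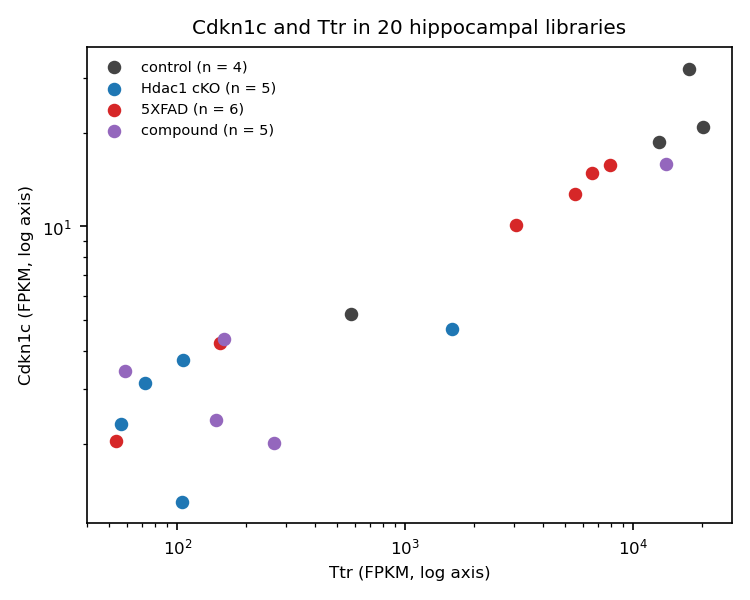
Cdkn1c against Ttr in the 20 hippocampal libraries (both axes FPKM, logarithmic), 1 point per mouse, coloured by group. Libraries of all 4 groups lie along one band, from 1.31 to 5.23 FPKM of Cdkn1c at low Ttr to 10.1 to 32.1 FPKM at high Ttr, and the 5 Hdac1 cKO mice are all at its low end.

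Cdkn2c, the INK4 inhibitor p18 (mm9, chromosome 4, 109333481 to 109339794, minus strand), was higher in compound mice than in each other hippocampal group. It was at 0.836, 1.35, 2.30, 2.58 and 3.56 FPKM in compound mice and at 0.232, 0.340, 0.643 and 0.930 FPKM in controls, where 1 compound mouse lay within the control range. Hdac1 cKO mice were at 0, 0.212, 0.226, 1.01 and 3.09 FPKM and 5XFAD mice at 0 to 2.52 with a median of 0.725. The log2 differences of compound mice were 0.98 from control (SE 0.27, adjusted p = 0.180), 0.70 from 5XFAD (SE 0.30, adjusted p = 0.734) and 0.85 from Hdac1 cKO (SE 0.37, adjusted p = 0.443 in limma), all 3 called, and all 3 use the same 5 compound mice. In fragments the compound libraries held 3 to 17 each and 41 in all, the controls 1 to 6 each and 10 in all. Hdac1 cKO libraries held 0 to 17 each and 26 in all, and 5XFAD libraries 0 to 8 each and 25 in all. The exact permutation p of compound mice was 0.0238 against control, 0.0671 against 5XFAD and 0.0952 against Hdac1 cKO, unadjusted. The call against control held in each of 16 alternative fits, and those against 5XFAD and Hdac1 cKO were lost in 7 of 11 and 6 of 10 fits that left out 1 library, among them compound replicates 1, 2 and 4 in both (0.54, 0.66 and 0.63 against 5XFAD, and 0.70, 0.81 and 0.78 against Hdac1 cKO). In the nuclei Cdkn2c stood at 1.40 to 4.48 FPKM and was not called.

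Cdkn1a, which encodes p21 and is a target of p53 (mm9, chromosome 17, 29227924 to 29237667, plus strand), was called in the GFAP+ nuclei, lower by -0.75 (SE 0.23, adjusted p = 0.984 in limma). There the controls were at 6.65, 6.69 and 9.54 FPKM and the libraries labelled Hdac1 cKO at 2.97, 3.73, 4.25 and 5.68 FPKM, so the groups did not overlap, and the exact permutation p of 0.0571 compares with a smallest possible value of 0.0286. In hippocampus it was at 4.42, 4.67, 7.63 and 8.33 FPKM in control, 2.52, 3.95, 4.70, 4.92 and 5.97 FPKM in Hdac1 cKO, 4.57, 5.28, 6.2003, 7.52 and 7.82 FPKM in compound and 4.34 to 11.3 FPKM (median 6.10) in 5XFAD mice. These groups overlapped, and Hdac1 cKO differed from control by -0.42 (SE 0.22, adjusted p = 0.502 in limma). The Hdac1 differences of nuclei and hippocampus did not differ by the test (-0.33, SE 0.33, adjusted p = 0.862 in limma). Cdkn1b, which encodes p27, was at 9.89, 12.3, 12.8 and 13.7 FPKM in control and 9.49, 9.89, 10.1, 10.6 and 13.0 FPKM in Hdac1 cKO hippocampus (log2 difference -0.18, SE 0.12, adjusted p = 0.611 in limma) and at 4.13, 6.63 and 6.91 against 4.38, 4.78, 6.599 and 6.72 FPKM in the nuclei. It was not called in any comparison. Cdkn2a, Cdkn2b and Cdkn2d averaged under 0.5 FPKM in hippocampus. Cdkn2a was not tested in any comparison, and Cdkn2b and Cdkn2d were not called where they passed the filter.

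**Figure D4:**
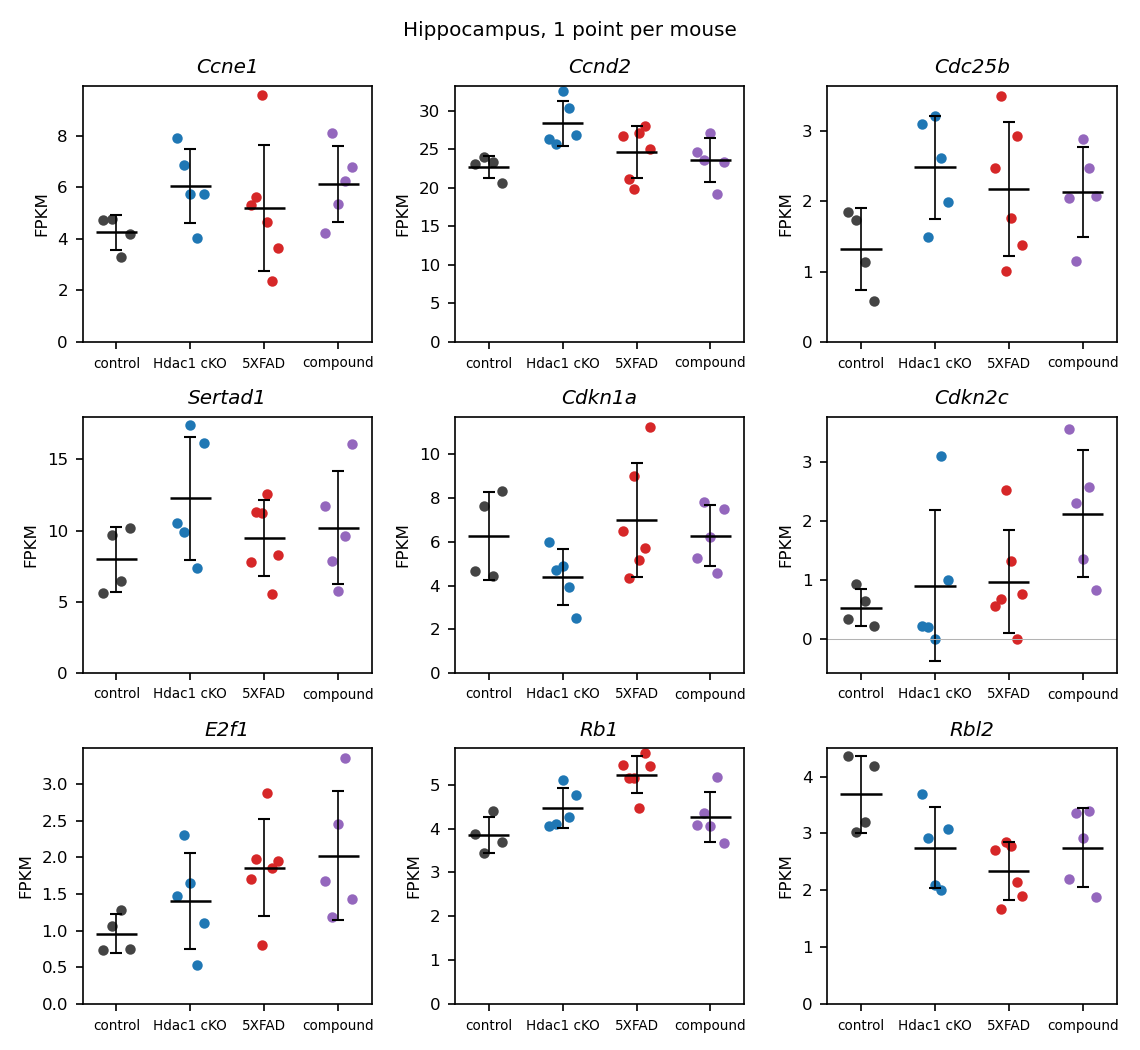
FPKM of 9 members in each hippocampal mouse by group, with the group mean (line) and SD (bars), on linear axes that include 0. Ccnd2 in Hdac1 cKO mice (25.6 to 32.5) lay above all controls, Rb1 in 5XFAD mice (4.47 to 5.73) above and Rbl2 in 5XFAD mice (1.67 to 2.85) below them, and the other groups shown overlapped the controls.

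Cdc25b, a phosphatase that activates CDK1 at the entry into mitosis (mm9, chromosome 2, 131012685 to 131024233, plus strand), was the other member called in Hdac1 cKO hippocampus. Controls were at 0.576, 1.13, 1.73 and 1.85 FPKM and Hdac1 cKO mice at 1.49, 1.99, 2.62, 3.10 and 3.21 FPKM, with 1 Hdac1 cKO mouse inside the control range. The log2 difference was 0.60 (SE 0.22, adjusted p = 0.309 in limma), just over 1.5-fold on the log2(FPKM + 1) scale, with an exact permutation p of 0.0556. The call was lost without control replicate 3 or 4 (0.57 and 0.42) or Hdac1 cKO replicate 1, 3 or 4 (0.53, 0.52 and 0.57), and with the choroid plexus covariate (0.21). Compound mice were at 1.16, 2.05, 2.07, 2.47 and 2.88 FPKM and 5XFAD mice at 1.01 to 3.49 with a median of 2.12, which overlapped the controls without a call. Cdc25b in nuclei was at 9.35, 11.91 and 11.96 FPKM in control and at 8.26, 10.9, 14.7 and 16.3 FPKM in the libraries labelled Hdac1 cKO (log2 difference 0.13, SE 0.23, adjusted p = 0.990 in limma). Cdc25a averaged 1.29 to 1.82 FPKM in the 4 hippocampal groups, and was not called, and Cdc25c was at 0 in 6 of the 20 libraries and below the filter.

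Of the E2F factors, the transcription factors that open the replication program, E2f1, E2f3 and E2f4 were tested in hippocampus. Their log2 differences from the shared 4 controls were 0.25 to 0.39 in Hdac1 cKO, 0.33 to 0.52 in 5XFAD and 0.33 to 0.59 in compound mice. Of these 9 differences, 1 was called, that of E2f1 in compound mice, where 3.36%, 2.95% and 4.24% of all genes were called in the 3 comparisons. E2f1 (mm9, chromosome 2, 154385143 to 154395628, minus strand) was at 0.739, 0.755, 1.07 and 1.28 FPKM in control and at 1.19, 1.44, 1.68, 2.45 and 3.35 FPKM in compound mice, with 1 compound mouse in the control range (log2 difference 0.59, SE 0.22, adjusted p = 0.366 in limma). That call was lost without control replicate 1 or 4 (0.53 and 0.54) or compound replicate 3 or 4 (0.53 and 0.44), and with the choroid plexus covariate (0.65). Hdac1 cKO mice were at 0.527, 1.10, 1.47, 1.65 and 2.30 FPKM (0.26, SE 0.22, adjusted p = 0.699 in limma) and 5XFAD mice at 0.800 to 2.88 with a median of 1.90 (0.52, SE 0.20, adjusted p = 0.377 in limma). E2f4, a factor that mainly represses with p130 and p107, was at 1.37, 1.95, 3.36 and 3.505 FPKM in control and 2.85, 2.88, 3.44, 4.15 and 4.22 FPKM in Hdac1 cKO mice, which overlapped. Its difference of 0.39 became 0.96 and was called with the choroid plexus covariate.

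In the GFAP+ nuclei, 2 of the 4 E2F factors were called (background 2.58%). E2f1 was at 0.843, 2.30 and 2.84 FPKM in control and at 2.51, 3.67, 3.92 and 4.48 FPKM in the libraries labelled Hdac1 cKO, overlapping by 1 library (log2 difference 0.68, SE 0.30, adjusted p = 0.984 in limma). The call was lost without control replicate 4 (0.37) or replicate 1, 3 or 4 of the libraries labelled Hdac1 cKO (0.65, 0.60 and 0.67). E2f2, another activating E2F (mm9, chromosome 4, 135728309 to 135751972, plus strand), was at 0.173, 0.679 and 0.859 FPKM in control and at 1.39, 1.43, 1.58 and 2.40 FPKM in the libraries labelled Hdac1 cKO, with no overlap (0.79, SE 0.27, adjusted p = 0.984, in limma, lost without control replicate 3 at 0.60). E2f4 did not overlap either, at 7.51, 7.78 and 8.23 against 9.14, 9.71, 10.5 and 13.6 FPKM (0.39, SE 0.18, adjusted p = 0.984 in limma), and E2f3 was at 3.70 to 5.21 and 3.65 to 4.03 FPKM. With the choroid plexus covariate the nuclei calls of Ccnd2 (0.56), Cdkn1a (-0.64) and E2f2 (0.79) were lost, and the choroid plexus markers were at a mean log2 level of 1.39 to 2.35 in control nuclei and 2.12 to 2.41 in the others. In hippocampus E2f2 averaged 0.317 FPKM and was below the filter. Hdac1 itself overlapped between these nuclei groups, and markers of oligodendrocyte precursors varied within both, at a mean log2 level of 3.28 to 4.17 in control and 2.80 to 4.15 in the libraries labelled Hdac1 cKO. Their part in these differences was not tested.

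**Figure D5:**
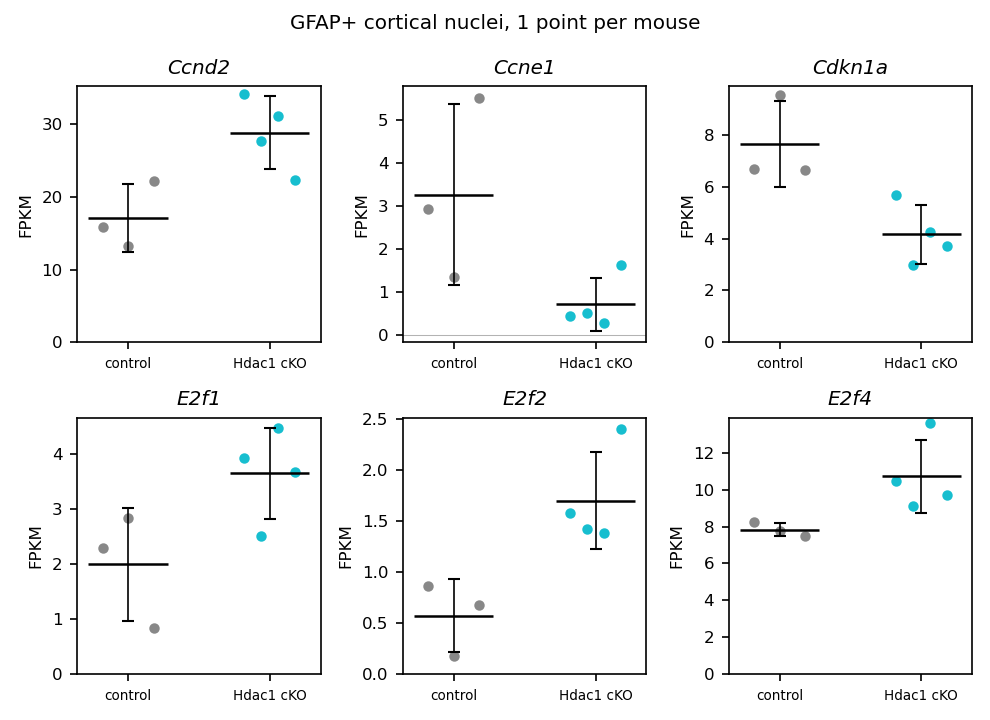
FPKM of 6 members in each library of GFAP+ nuclei by group, with the group mean (line) and SD (bars), on linear axes that include 0. Ccnd2, E2f2 and E2f4 were higher and Cdkn1a lower in all 4 libraries labelled Hdac1 cKO than in the 3 controls, and E2f1 and Ccne1 overlapped by 1 library. The share of all genes without overlap is not given, and the lowest adjusted p of any member in the nuclei was 0.984 in limma.

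The pocket proteins, which bind E2Fs and recruit HDAC1, were not called in any comparison. Rb1 was at 3.45, 3.69, 3.88 and 4.40 FPKM in control and at 4.47 to 5.73 FPKM (median 5.29) in 5XFAD mice, with no overlap, a log2 difference of 0.36 (SE 0.12, adjusted p = 0.283 in limma) and an exact permutation p of 0.00476, the smallest that 4 against 6 mice allow. Hdac1 cKO mice were at 4.06, 4.10, 4.27, 4.78 and 5.11 FPKM and compound mice at 3.67, 4.05, 4.08, 4.36 and 5.17 FPKM, both overlapping the controls. Rbl2, which encodes p130, the main pocket protein of resting cells, went the other way: it was at 3.03 to 4.35 FPKM in control and 1.67 to 2.85 FPKM in 5XFAD mice (-0.49, SE 0.16, adjusted p = 0.282 in limma), again without overlap. Neither difference reached 1.5-fold on the log2(FPKM + 1) scale. In FPKM, Rbl2 averaged 3.69 in control and 2.34 in 5XFAD mice, and its log2 difference reached -0.65 among the alternative fits. The interaction was -0.42 for Rb1 (SE 0.15, unadjusted p = 0.0120, adjusted p = 0.430) and 0.49 for Rbl2 (SE 0.23, unadjusted p = 0.0471, adjusted p = 0.548 in limma). Rbl1, which encodes p107, was below the filter, with 0.187 to 0.566 FPKM in compound mice and 0.0620 to 0.192 FPKM in control (exact permutation p = 0.0238, unadjusted).

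The MCM subunits, which unwind DNA at replication forks, were not called in any comparison. Of the 6 subunits, 5 were tested for Hdac1 cKO, 6 for 5XFAD and 4 for compound mice against control, and 6 in the nuclei. Mcm6, with 3 E2F spellings in the window printed above, was at 5.27, 6.24, 6.28 and 6.37 FPKM in control, 5.14, 6.70, 6.86, 7.03 and 7.58 FPKM in Hdac1 cKO, 4.53, 4.62, 4.89, 6.58 and 7.59 FPKM in compound and 5.49 to 6.98 FPKM (median 6.17) in 5XFAD mice, all overlapping. Mcm5, with 2 such spellings, was at 0.953, 1.95, 2.04 and 2.34 FPKM in control and 2.28, 2.39, 2.55, 2.63 and 2.91 FPKM in Hdac1 cKO hippocampus (0.36, SE 0.17, adjusted p = 0.452 in limma). In the nuclei it was at 3.18, 3.66 and 4.26 FPKM in control and 4.55, 4.62, 4.65 and 5.59 FPKM in the libraries labelled Hdac1 cKO, without overlap and below 1.5-fold (0.32, SE 0.20, adjusted p = 0.984 in limma). Mcm3 was at 0.114 to 0.649 FPKM in control (mean 0.269) and 0.530 to 1.23 FPKM in 5XFAD mice (mean 0.711). The difference of 0.44 (SE 0.18, adjusted p = 0.417 in limma) did not reach 1.5-fold on the log2(FPKM + 1) scale, which understates changes at such low levels. Among the alternative fits the log2 difference reached 1.29. It rests on 12 fragments in 4 control libraries and 63 in 6 5XFAD libraries, whose median relative depth was 1.26 and 1.67.

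Of the markers of S phase and division, Pcna was tested and not called in any comparison, and Mki67 and Top2a were below the filter and not tested. Pcna was at 28.1, 30.5, 36.0 and 39.8 FPKM in control, 29.6, 32.0, 32.1, 35.1 and 40.8 FPKM in Hdac1 cKO, 31.6, 34.5, 40.1, 41.7 and 42.3 FPKM in compound and 24.7 to 45.8 FPKM (median 31.1) in 5XFAD mice. Its log2 difference from control was 0.02 (SE 0.12) in Hdac1 cKO, 0.18 (SE 0.13) in compound and -0.04 (SE 0.15) in 5XFAD mice, all with overlap. In the nuclei it was at 9.41, 14.4 and 23.4 against 11.3, 15.3, 16.3 and 18.9 FPKM. Mki67 averaged 0.281 ± 0.273 FPKM (SD, n = 4) in control, 0.224 ± 0.0903 (n = 5) in Hdac1 cKO, 0.264 ± 0.172 (n = 6) in 5XFAD and 0.271 ± 0.0684 (n = 5) in compound mice, and Top2a 0.369 ± 0.376, 0.195 ± 0.171, 0.324 ± 0.107 and 0.399 ± 0.337 FPKM. The same 5XFAD and compound libraries held more microglial RNA: the 12 microglia markers summed to 466 to 612 and 493 to 993 FPKM there and to 221 to 282 and 235 to 257 FPKM in control and Hdac1 cKO mice, and 7 of the 12 were called higher in each against control. Markers of neural progenitors and newborn neurons were at a mean log2 level of 1.55 to 1.77 in control and 1.44 to 1.55 in Hdac1 cKO mice. They were at 1.49 to 1.78 in 5XFAD and 1.37 to 1.64 in compound mice. Of 6 such markers tested, 1, 1 and 0 were called lower than control in Hdac1 cKO, 5XFAD and compound mice.

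Of 110 further genes in 5 lists (DNA replication and nucleotide synthesis, mitosis, other E2F and DREAM subunits, other cyclins, kinases and SERTAD family, and p53 targets), 90 were tested for Hdac1 cKO and 90 for 5XFAD against control and none was called, where 3.36% and 2.95% of all genes were. For compound mice against control and against Hdac1 cKO, 1 of 91 was called each time, and none of 91 for compound against 5XFAD (backgrounds 4.24%, 3.55% and 1.28%). The one called was Gadd45a, a p53 target that answers DNA damage. It was at 1.23 to 4.55 FPKM in control, 1.53 to 3.79 in Hdac1 cKO, 2.93 to 8.36 in 5XFAD and 3.49 to 6.10 in compound mice (0.64, SE 0.27, adjusted p = 0.428, and 0.65, SE 0.20, adjusted p = 0.178 in limma). Of 99 tested in the nuclei 5 were called (background 2.58%), of which the 3 with the largest changes were Mad2l1, a subunit of the spindle checkpoint (0.80), Sertad3, a relative of Sertad1 (0.76), and Cdc6, which loads the MCM helicase onto origins (0.74). Mad2l1 was at 0.184, 0.640 and 0.664 FPKM in control and 0.954 to 1.999 FPKM in the libraries labelled Hdac1 cKO, and Cdc6 at 0.253 to 0.421 and 0.708 to 1.96 FPKM, both without overlap. The remaining 2, Plk1 and Fas, were lower (-0.66 and -0.70). All 5 had an adjusted p of 0.984 in limma. For the interaction 4 of 90 were called (background 4.07%), led by Prim1, a primase subunit (0.72), Bbc3, which encodes the cell death protein PUMA (0.63), and Gins2, a partner of the MCM helicase (-0.63), with adjusted p from 0.403 to 0.507.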

How the data were processed

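The authors aligned the reads with TopHat and computed FPKM with Cufflinks 2.0.0 from the UCSC annotation of mm9. The hippocampus was profiled by 3′ Digital Gene Expression, and SMART-Seq v4 was used for GFAP+ nuclei. The deposited FPKM files hold 1 value for each of 23951 genes in 27 libraries, and they were used as deposited. One control sample of the GFAP+ nuclei (replicate 2) was not analysed here, nor were the 6 ChIP-seq samples. Files give no fragment counts. Relative depth, read from the smallest FPKM steps, was 0.754 to 2.35 in hippocampus and 0.869 to 1.26 in nuclei, each relative to control 1, and for 16 low members 229 of 229 low values were whole multiples of the step within 0.1. A member was kept for this count only if most of its low values already met that limit, and Rbl1 was not kept. The count is therefore no independent test of the step. No interval for counting error was computed.

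Values were tested as log2(FPKM + 1) with limma 3.58.1 (R 4.3.3, trend and robust) over genes that averaged 0.5 FPKM or more in the libraries fitted, without covariates. Only the groups compared entered a fit, except for the interaction. Fold changes on this scale understate those of low genes. A call needed 1.5-fold and an unadjusted p under 0.05, and p-values were adjusted by Benjamini-Hochberg over all genes tested. The p-values measure the spread between these mice. For single genes the mean log2(FPKM + 1) was also compared by an exact permutation test, two-sided. Where groups are said not to overlap, the share of all genes without overlap is not given. In groups this small, a lack of overlap is a description of the libraries only. The difference between nuclei and hippocampus was chosen after seeing the data. The fits were tested on simulated data. Python 3.11.15 was used for the rest.

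The 40 members and all lists were chosen with earlier results of these data known. The members described in most detail were those called in any comparison, Ccna1, Ccne1, Cdkn1a, Cdkn1b, Cdc25b and Sertad1, and the highest of each role. Groups of 6 mice were given as lowest, median and highest value, and some uncalled values as a range or mean. Others were named after their values were seen. Of other lists, up to 3 called genes per comparison were named, and short counts in full. Coordinates come from the GENCODE annotation of mm9 and the windows before start sites from RefSeq. Alternatives were a pseudocount of 0.1, no filter or 1 FPKM, quantile normalization, the choroid plexus score as a covariate, a replicate block, all hippocampal groups in one fit, and each library left out.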

Additional observations from a re-analysis of the deposited data

Results flagged for a closer look

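In 16 members and 80 groups of 4 to 6 mice, single libraries that stood far from the rest of their group were sought, which chance gives in about 1 group in 20. These 5 gene and library pairs met the limit. Cdk4 in control replicate 4 was at 14.5 FPKM where the other 3 controls were at 18.4 to 18.5, and Mcm6 in the same library was at 5.27 FPKM beside 6.24 to 6.37. Cdkn1c in compound replicate 1 was at 15.9 FPKM where the other 4 compound mice were at 2.01 to 4.36, and that library also had the most Ttr of its group. E2f2 was at 0.568 FPKM in compound replicate 1, beside 0.250 to 0.302, and at 0.969 FPKM in 5XFAD replicate 4, beside 0.122 to 0.375.

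The effect of Hdac1 loss differed between GFAP+ nuclei and hippocampus at an unadjusted p under 0.05 for Ccne1 (log2 difference -1.66, higher in 4 of 5 mutant mice than all controls in hippocampus and lower in 3 of 4 mutant libraries than all controls in nuclei) and for Cdkn1c (1.68, SE 0.54, adjusted p = 0.411 in limma), as for 1036 of all 13488 genes tested. The hippocampal change of Cdkn1c went from -2.16 to -0.35 with the choroid plexus score as a covariate, and the part of the choroid plexus markers in its difference between the sets was not tested. The region, the compartment and the library method differ between these sets and cannot be told apart. The sample labels do not say whether both sets came from the same mice. The interaction of Hdac1 loss and 5XFAD in hippocampus reached an unadjusted p under 0.05 for Ccnd2 (-0.36), Rb1 (-0.42) and Rbl2 (0.49), with adjusted p from 0.430 to 0.548 in limma, and 1290 of all 14389 genes tested did so.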

How the results depend on the processing

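With a pseudocount of 0.1 the number of members called was 3 in place of 0 for 5XFAD against control, 0 in place of 1 for compound against 5XFAD and 2 in place of 1 for compound against Hdac1 cKO, while all genes called went from 425 to 641, from 184 to 325 and from 504 to 697. With the choroid plexus score as a covariate it was 7 in place of 2 for Hdac1 cKO, 1 in place of 0 for 5XFAD, 0 in place of 1 for compound against Hdac1 cKO and 2 in place of 0 for the interaction, while all genes called went from 480 to 877, from 425 to 461, from 504 to 495 and from 586 to 516. It was 2 in place of 3 for compound against control and 4 in place of 5 in the nuclei, while all genes called went from 608 to 750 and from 389 to 863. With all 4 hippocampal groups in one fit, compound against 5XFAD gave 0, with 177 of all genes called. Leaving out 1 library gave 1 to 4 members for Hdac1 cKO, 0 to 1 for 5XFAD, 1 to 3 for compound against control, 0 to 1 for compound against 5XFAD and against Hdac1 cKO and for the interaction, and 4 to 6 in the nuclei. The same fits called 411 to 659, 410 to 605, 557 to 755, 183 to 251, 461 to 596, 533 to 756 and 384 to 531 of all genes. The cause of these shifts was not tested. No log2 change of a called member, or of an uncalled one with an unadjusted p under 0.05, changed sign under any of these settings. Of 89 uncalled pairs of named member and comparison, 11 were called and 32 had another sign in at least 1 of them. Replicate numbers showed no clear pairing of the mice (correlations of -0.11 to 0.08 between mice of the same number). For compound against Hdac1 cKO, 3 of 5 mice correlated best with the mouse of their own number, and 0 or 1 did in each other comparison. With a replicate block, 1 member was called for 5XFAD and 1 for the interaction, where all genes called went from 425 to 478 and from 586 to 719, and Cdkn1c lost its call in compound mice (-1.64). Depth limits the genes near 0, where 1 fragment more or less changes a value.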
